A study of Mus musculus with 16 samples.

Results

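Adipoq, Cfd, Plin1, Cidec, Lep, Retn, Fabp4, Adig, Acvr1c and Pnpla3 are 10 genes known as markers of fat cells, and they were followed here in a muscle, the mouse soleus. They were taken by name, with earlier results of these data known, out of 20972 genes named on the array, and 15 probes read their transcripts. Total RNA of the soleus of male mice was hybridised to Agilent 1-colour arrays (Cy3) before and during hypoxia, giving 4 RNA samples for day 0, 3 each for day 3 and day 7, and 4 for day 14. Oxygen was brought down step by step to 10% in the first week and held there in the second. Day 3 therefore differed from days 7 and 14 in oxygen level as well as in time. Days 7 and 14 bounded the week of held oxygen. Every group carried the hypoxia label, day 0 being its starting point, and no animals kept in normal air for the same time were analysed here. Strain, age and feeding are not given in the sources used here. Whether the RNA samples stem from separate animals is likewise not stated. The p-values set day differences against the spread between these samples and their arrays, which may not be a spread between animals.

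Fat cells store triglyceride in a single large droplet and secrete hormones. Adiponectin (Adipoq), leptin (Lep), resistin (Retn) and adipsin (Cfd, complement factor D) are secreted, perilipin 1 (Plin1) and Cidec coat and enlarge the droplet, and Fabp4 carries fatty acids. Acvr1c (ALK7) is a receptor of the TGF-beta family that restrains lipolysis, adipogenin (Adig) takes part in fat storage, and Pnpla3 encodes a droplet protein with lipase and acyltransferase activities. In skeletal muscle, mature fat cells lie between the fibres and along the sheath, and can arise from fibro-adipogenic progenitors. In RNA from a whole muscle, more fat cells and more marker RNA per fat cell cannot be told apart.

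Levels are log2 of the spot intensity over the 75th percentile of the array, adjusted for slide. Samples run on both slides were averaged. A level of 0 is that percentile, and levels of different probes cannot be ranked against each other. The arrays lie on 2 slides. Slide 1 holds days 3 and 7 with day 0 samples 1 and 2, and slide 2 holds day 14 with all 4 day 0 samples. An alternative fit left out the slide term and the slide 1 arrays of day 0. In it, differences of days 3 and 7 from days 0 and 14 also hold any slide difference. Between 48.3 and 55.3% of the spots were well above background on slide 1, against 37.9 to 42.9% on slide 2. Precision is set by the few RNA samples per day. Days were compared with limma, with Benjamini-Hochberg adjustment over 22126 features, and the threshold was an adjusted p of 0.05.

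The soleus label was checked first. The 10 muscle fibre markers, both of slow fibres (Myh7, Myl2) and of muscle fibres in general (Acta1, Ckm, Mb), were all measured, with a mean level of 9.25 to 9.66 in each of the 14 RNA samples. The mean level of the 9 measurable fat cell markers was 1.33 to 1.62 in the day 0 samples and 2.10 to 2.92 in the day 3 samples. It was 1.25 to 2.47 in the day 7 samples and 0.86 to 1.96 in the day 14 samples. All 3 day 3 samples lay above all 4 day 0 samples, whereas the day 7 and day 14 samples lay on both sides of them. Of the skin and mammary markers Krt15, Krt8, Epcam and Dsp, and of the lymph node markers Cd79a and Ms4a1, none passed the filter on dim probes.

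**Figure D1:**
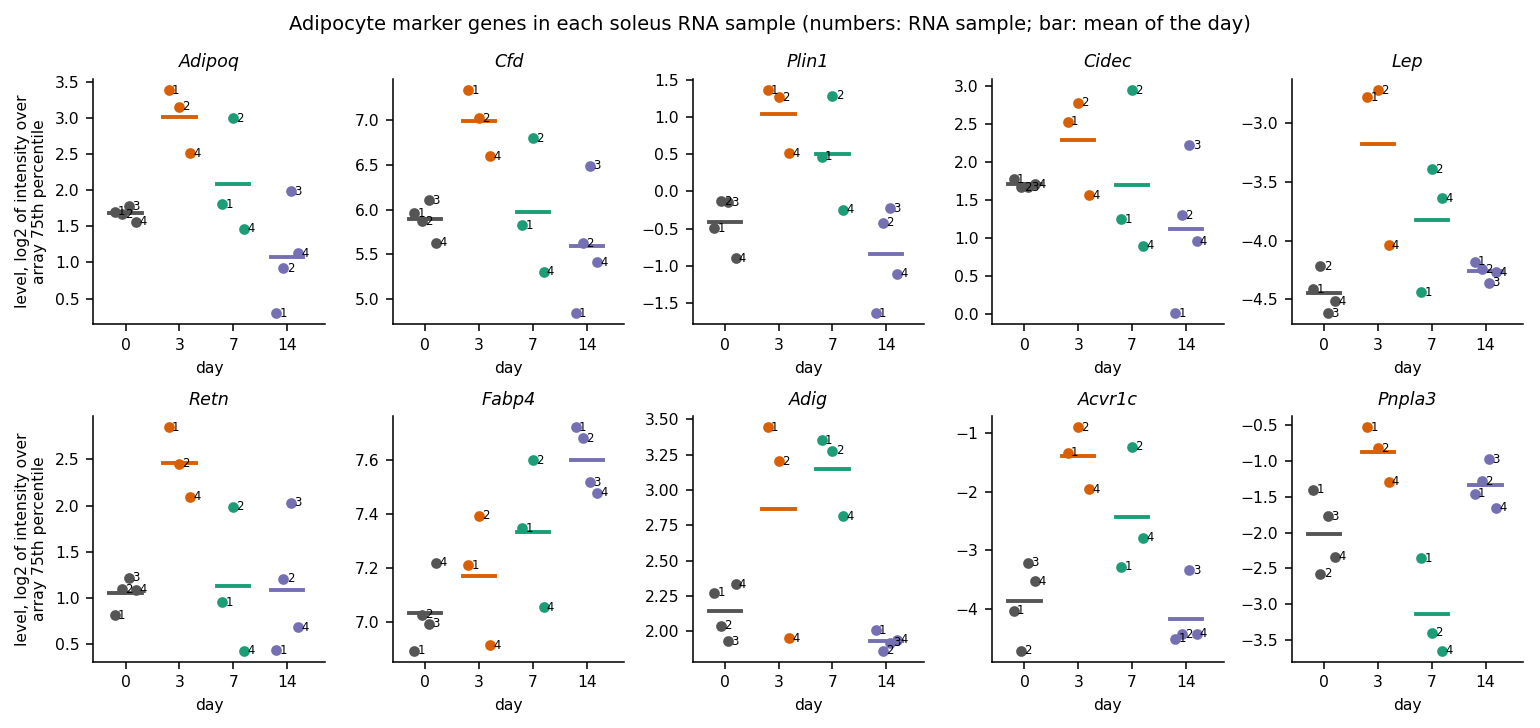
Level of each of the 10 marker genes (log2 of the intensity over the 75th percentile of the array, adjusted for slide) in each of the 14 RNA samples, by day of hypoxia. Points carry the sample number, bars are means of the day, and the vertical scale differs between genes. At day 3 all 3 samples lie above all day 0 samples for Adipoq, Cfd, Plin1, Retn, Acvr1c and Pnpla3. Lep was above background in 2 day 3 samples only, and Acvr1c on no day 0 or day 14 array.

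C/EBP factors and the nuclear receptor PPARG are known regulators of fat cell promoters, and their core motifs can be looked for upstream. Upstream sequence is shown for Adipoq, Plin1 and Cidec, whose levels moved together between samples, and for Lep. The genes shown include all 3 with a C/EBP match. Cfd and Retn moved with Adipoq as well, but held no match and are not shown, nor is the other Cidec window, also without one. RefSeq (GRCm38.p6) held windows of 300 bases, 250 before and 50 after the start, for 9 of the 10 genes in 11 windows. Fabp4 was not among them. The 250 bases before the start, 5′ to 3′ on the strand of the gene, are given for Adipoq at chr16:23146286-23146535 (plus strand), Plin1 at chr7:79732777-79733026 (minus strand), Cidec at chr6:113434765-113435014 (minus strand) and Lep at chr6:29059971-29060220 (plus strand). The tables give 2 starts for Cidec, and the window shown belongs to the inner one, inside the gene. The start used for Plin1 likewise lies inside the outermost end of its gene. Capitals mark matches to the C/EBP core TTGCNNAA, where N is any base, on either strand.
Adipoq: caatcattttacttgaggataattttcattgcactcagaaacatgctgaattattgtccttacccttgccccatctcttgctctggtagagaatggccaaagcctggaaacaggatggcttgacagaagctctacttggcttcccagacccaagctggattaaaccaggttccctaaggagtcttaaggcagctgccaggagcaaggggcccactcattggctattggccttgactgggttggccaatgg
Plin1: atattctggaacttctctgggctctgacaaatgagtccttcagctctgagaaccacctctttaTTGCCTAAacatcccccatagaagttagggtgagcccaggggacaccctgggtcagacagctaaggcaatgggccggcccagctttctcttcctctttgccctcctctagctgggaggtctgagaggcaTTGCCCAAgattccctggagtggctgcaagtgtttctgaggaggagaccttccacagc
Cidec: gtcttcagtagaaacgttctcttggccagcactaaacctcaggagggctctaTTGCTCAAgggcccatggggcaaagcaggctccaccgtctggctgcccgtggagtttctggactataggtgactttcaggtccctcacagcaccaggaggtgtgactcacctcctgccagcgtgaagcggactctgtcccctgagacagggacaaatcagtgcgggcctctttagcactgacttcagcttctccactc
Lep: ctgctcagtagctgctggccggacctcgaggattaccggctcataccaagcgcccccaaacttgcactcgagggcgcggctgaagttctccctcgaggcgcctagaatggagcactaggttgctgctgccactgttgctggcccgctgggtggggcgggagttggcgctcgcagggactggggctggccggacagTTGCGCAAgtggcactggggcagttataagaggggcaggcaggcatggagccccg

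The C/EBP core stood in 3 of the 11 windows, which belong to 3 of the 9 genes. It began 187 bases before the start of Plin1 as TTGCCTAA and again 58 bases before it as TTGCCCAA, 198 bases before the start of Cidec as TTGCTCAA, and 55 bases before the start of Lep as TTGCGCAA. It stood in 10.8% of all 32851 promoter windows of this length. The nuclear receptor core AGGTCA stood 154 bases before the start of Adig and in 16.3% of all windows. TATAAA, in 13.6% of all windows, and the hypoxia response core ACGTG, in 19.6%, matched in none of the 11. A match is a string of letters, and no binding was measured.

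Adipoq, the gene of the hormone adiponectin, is the first of the secreted products. Its level was 1.70, 1.67, 1.78 and 1.57 in day 0 samples 1 to 4, 3.39, 3.16 and 2.51 in day 3 samples 1, 2 and 4, 1.81, 3.00 and 1.47 in day 7 samples 1, 2 and 4, and 0.30, 0.92, 1.99 and 1.13 in day 14 samples 1 to 4. Day 3 lay wholly above day 0. At day 7 a single sample, number 2, stood as high as day 3, and at day 14 sample 3 alone stood above the day 0 range. The day 3 minus day 0 difference was 1.34 ± 0.44 (SE) log2 units, with an adjusted p of 0.0828 from limma, which did not pass. The day 7 minus day 0 difference was 0.41 ± 0.44 and the day 14 minus day 0 difference -0.60 ± 0.35, with adjusted p of 0.542 and 0.353 from limma.

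Cfd, the serine protease that starts the alternative complement pathway, had levels of 5.96, 5.87, 6.11 and 5.63 at day 0, 7.33, 7.02 and 6.60 at day 3, 5.83, 6.79 and 5.30 at day 7, and 4.84, 5.62, 6.49 and 5.41 at day 14, in the same order of samples. The same samples stood out as for Adipoq, 2 at day 7 and 3 at day 14. The day 3 minus day 0 difference was 1.09 ± 0.42 (adjusted p = 0.128, limma).

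Retn, the gene of resistin, a hormone made by fat cells in mice, had levels of 0.81, 1.10, 1.22 and 1.09 at day 0, 2.84, 2.45 and 2.10 at day 3, 0.96, 1.99 and 0.43 at day 7, and 0.44, 1.21, 2.03 and 0.69 at day 14. The 3 day 3 samples lay above every sample of day 0, 7 and 14. The day 3 minus day 0 difference was 1.42 ± 0.43 (adjusted p = 0.0683, limma). A second Retn probe gave 1.16 for the same difference of means. The day 7 minus day 3 difference was -1.34 ± 0.40, without overlap of samples (adjusted p = 0.141, limma).

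Lep, the gene of leptin, which reports fat stores to the brain, was read by a single probe printed as 10 spots. All 10 spots were well above background in day 3 sample 1, 5 of 10 in day 3 sample 2 and 1 of 10 in day 7 sample 1. None was on the other 13 arrays, day 3 sample 4 among them. With 2 arrays above background the probe missed the filter, which asked for 3, and Lep is in no count of tested genes. The bound on its day 3 excess over day 0 lay below 1, so no fold is given. In a fit of all probes without the filter its day 3 minus day 0 difference was 1.25 ± 0.34 with an adjusted p of 0.0815 from limma. That difference is set against day 0 values below background and is no fold change. The samples in which Lep was detectable, day 3 samples 1 and 2, also held the highest Adipoq levels of the study.

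Plin1 and Cidec belong to the lipid droplet. Plin1, the coat protein that guards the droplet from lipases, had levels of -0.50, -0.13, -0.14 and -0.90 at day 0, 1.36, 1.26 and 0.51 at day 3, 0.47, 1.29 and -0.25 at day 7, and -1.64, -0.42, -0.23 and -1.11 at day 14. Day 3 lay above day 0 in every sample, and at day 7 samples 1 and 2 did too. The day 3 minus day 0 difference was 1.45 ± 0.44 (adjusted p = 0.0697, limma), and at day 7 it was 0.90 ± 0.44 (adjusted p = 0.161, limma).

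Cidec, which fuses small droplets into large ones, had levels of 1.77, 1.67, 1.67 and 1.71 at day 0, 2.53, 2.79 and 1.57 at day 3, 1.24, 2.95 and 0.89 at day 7, and 0.01, 1.30, 2.23 and 0.95 at day 14. Day 0 spanned a 1.07-fold range of intensity, day 3 a 2.33-fold, day 7 a 4.16-fold and day 14 a 4.65-fold range. The means moved less than that, with a day 3 minus day 0 difference of 0.59 ± 0.59 (adjusted p = 0.571, limma). A second, dimmer Cidec probe gave 0.11 for the same difference of means and -0.81 for day 7 minus day 0, against -0.01 for the first probe.

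Fabp4, which shuttles fatty acids inside fat cells and is also made by capillary endothelium, behaved differently. Its level was 6.89, 7.03, 6.99 and 7.22 at day 0, 7.21, 7.39 and 6.91 at day 3, 7.35, 7.60 and 7.05 at day 7, and 7.72, 7.68, 7.52 and 7.48 at day 14. The 4 day 14 samples lay above all day 0 samples, a difference of 0.58 ± 0.13 or 1.495-fold (adjusted p = 0.0664, limma). With day 7 sample 2 or sample 4 left out of the fit, that adjusted p was 0.0469 or 0.0480 in limma. At day 3 the difference from day 0 was 0.15 ± 0.17 (adjusted p = 0.611, limma). Fabp4 was the 1 member whose day 14 samples stood above day 0 without overlap. The share of all features that did so was not computed. The endothelial list, which also holds Fabp4 and Cd36, had 0 of 8 members called at day 14 in limma, where 0.402% of features passed. It had 3 at an unadjusted p under 0.05 and a median difference of -0.08. Its mean level was 2.65 to 2.75 at day 14 against 2.66 to 2.79 at day 0, and its part in the Fabp4 values was not tested.

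Adig rose at day 7. Its level was 2.27, 2.04, 1.93 and 2.33 at day 0, 3.44, 3.20 and 1.95 at day 3, 3.35, 3.28 and 2.82 at day 7, and 2.01, 1.86, 1.92 and 1.94 at day 14. All 3 day 7 samples lay above all day 0 samples, and 2 of the 3 day 3 samples did, while day 3 sample 4 stayed within the day 0 range. At day 7 Adig was 1.005 ± 0.314 log2 units, or 2.01-fold, above day 0 (adjusted p = 0.0336, limma). That call was lost without day 0 sample 1 or 2 (adjusted p = 0.110 and 0.193) and without day 7 sample 1 or 2 (0.0999 and 0.103, all from limma). It was also lost with the slide term and the slide 1 arrays of day 0 left out (0.0719), within slide 1 (0.130) and with no filter on dim probes (0.0602, all from limma). A second Adig probe gave 0.38 for the same difference of means, and with both probes averaged the difference was 0.69 (adjusted p = 0.157, limma). Without day 3 sample 4, Adig also passed at day 3, at 1.18 ± 0.18 (adjusted p = 0.0109, limma). The day 14 minus day 7 difference was -1.22 ± 0.36, without overlap of samples (adjusted p = 0.0836, limma).

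Acvr1c rose at day 3 from below the background. No probe of it was well above background on any of the 6 day 0 arrays or the 4 day 14 arrays, while both its probes were on all 3 day 3 arrays. Its level at day 3 was -1.34, -0.91 and -1.96 in samples 1, 2 and 4. The values read at day 0, -4.03, -4.70, -3.20 and -3.53, lay below background and do not measure its level. Day 3 was at least 1.60-fold higher than day 0 by the first probe and at least 1.66-fold by the other. The bound sets the day 3 mean against the lowest level called above background on each day 0 array, both without slide adjustment. The adjusted p was 0.0299 in limma. The fitted probe was above background on 3 day 3 arrays and 1 day 7 array, so it passed the filter on dim probes only through day 3. That p therefore sets the day that admitted the probe against values below background. The call was lost without day 0 sample 1 or 2 (adjusted p = 0.0783 and 0.301) and without day 3 sample 1 or 2 (0.0599 and 0.103, all from limma). It was also lost without the slide term (0.0676), with the slide 1 arrays of day 0 left out too (0.0741), within slide 1 (0.127), with quantile normalization (0.0554) and with no filter on dim probes (0.0600, all from limma). At day 7 the first probe was above background in 1 of 3 samples, sample 2, at -1.24, the sample that was also highest for Adipoq, and the bound against day 0 lay below 1.

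Pnpla3 had its own course. Its level was -1.41, -2.57, -1.77 and -2.34 at day 0, -0.54, -0.82 and -1.29 at day 3, -2.36, -3.40 and -3.64 at day 7, and -1.46, -1.29, -0.98 and -1.65 at day 14. Day 7 lay below day 3 and below day 14 in every sample. At day 7 it fell by 2.25 ± 0.39 on the log2 scale relative to day 3 (adjusted p = 0.0205, limma), both days being on slide 1. Only 1 of 3 day 7 arrays was above background for this probe, so values near background limit the size of that difference. The call was lost without day 3 sample 1 (adjusted p = 0.0913) or day 7 sample 2 (0.0787, limma). It was also lost within slide 1 (0.121), with quantile normalization (0.0510) and with no filter on dim probes (0.0517, all from limma). The day 14 minus day 7 difference was 1.79 ± 0.49 (adjusted p = 0.0677, limma). A second Pnpla3 probe gave -0.79 for day 7 minus day 3 and 1.19 for day 14 minus day 7. For day 3 minus day 0 the probes disagreed in sign, at 1.14 for the first and -0.71 for the second, so no direction is given for it.

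Counted over the list, 1 of the 9 tested genes passed at day 3 against day 0 in limma, where 6.09% of all 22126 features did. It was Acvr1c, higher at day 3, whose probe passed the filter on dim probes only through its day 3 arrays. In 9 of 9 genes the difference was above 0, and in 6 of 9 all day 3 samples lay above all day 0 samples, for Pnpla3 by the first probe only. The share of all features without such overlap was not computed. Acvr1c, 1 of the 6, had day 0 values below background, and several of the genes moved together between samples, so these counts are descriptions. The median difference of the 9 genes was 1.14 (1.09 with Acvr1c at its bound) against 0.06 over all features. With the second Pnpla3 probe, 8 of 9 differences were above 0 and the median was 1.09, or 0.72 with Acvr1c at its bound as well. With 1 sample left out, 10 to 1717 of all features passed, against 1348 in the full fit. For the 9 genes the count was 0 without day 0 sample 1 or 2 and without day 3 sample 1 or 2. It was 2 without day 14 sample 3, 3 without day 3 sample 4 or day 7 sample 4, and 4 without day 7 sample 2. With the slide term and the slide 1 arrays of day 0 left out it stayed at 1 but was Adipoq (adjusted p = 0.0398, limma). Within slide 1 the differences for Adipoq, Cfd, Plin1 and Retn were 1.33, 1.08, 1.39 and 1.48, and 0 of 9 genes passed. There, 0 of all features passed at day 3 either.

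At day 7 against day 0, 1 of 9 genes passed in limma (Adig), where 23.8% of all features did. The median difference was 0.31 against 0.09 over all features, and 7 of 9 differences were above 0. With 1 sample left out, 103 to 5808 of all features passed, against 5261 in the full fit. For the 9 genes the count was 0 without day 0 sample 1 or 2 and without day 7 sample 2. Without day 7 sample 1 it stayed at 1 but was Pnpla3, at -1.503 (adjusted p = 0.0295, limma). Pnpla3 was also the 1 gene called with the slide term and the slide 1 arrays of day 0 left out (adjusted p = 0.0200) and with the probes of each gene averaged (0.0133, both limma). Within slide 1, 0 of 9 genes passed, and Adig was at 0.999.

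Against day 0, 0 of 9 genes passed at day 14 in limma, where 0.402% of all features did, and 1 of 9 had an unadjusted p under 0.05 (Fabp4). The median difference was -0.23 against 0.06 over all features, with 6 of 9 differences below 0. The second Pnpla3 probe turned the sign of that gene, at -0.31 against 0.68 for the first, which gave 7 of 9 and a median of -0.30. The count was 1 without day 7 sample 2 or sample 4, while 3 to 219 of all features passed with 1 sample left out, against 89 in the full fit. Within slide 2, 0 of 9 passed, and the difference was -0.60 for Adipoq and 0.58 for Fabp4. These 3 comparisons share the day 0 samples, so their values are not independent of each other.

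Between later days, 1 of 9 genes passed at day 7 against day 3 in limma, where 0.678% of all features did, and it was lower (Pnpla3). The median difference was -0.93 against 0.05 over all features, and 7 of 9 differences were below 0. The count was 0 without day 3 sample 1 or day 7 sample 2, while 28 to 268 of all features passed with 1 sample left out, against 150. At day 14 against day 7, 0 of 9 passed in limma, where 2.3% of all features did, and 4 of 9 had an unadjusted p under 0.05. The median difference was -0.57 against -0.04 over all features. Without day 3 sample 4 the count was 1 (Adig), while 4 to 1225 of all features passed with 1 sample left out, against 508. The 2 days lie on different slides, joined by the day 0 samples run on both.

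Over all 3 differences from day 0 at once, limma's F-test called Pnpla3 (adjusted p = 0.0139), Fabp4 (0.0369) and Acvr1c (0.0393), 3 of 9 genes where 17.1% of all features passed. The Acvr1c probe passed the filter on dim probes only through its day 3 arrays, and its day 0 and day 14 values lay below background. The count of called genes was 1 without day 0 sample 1, day 3 sample 1 or day 14 sample 1 or 2. It was 0 without day 0 sample 2, and 5 without day 7 sample 2. Over all features, 78 to 4721 passed with 1 sample left out, against 3775 in the full fit.

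**Figure D2:**
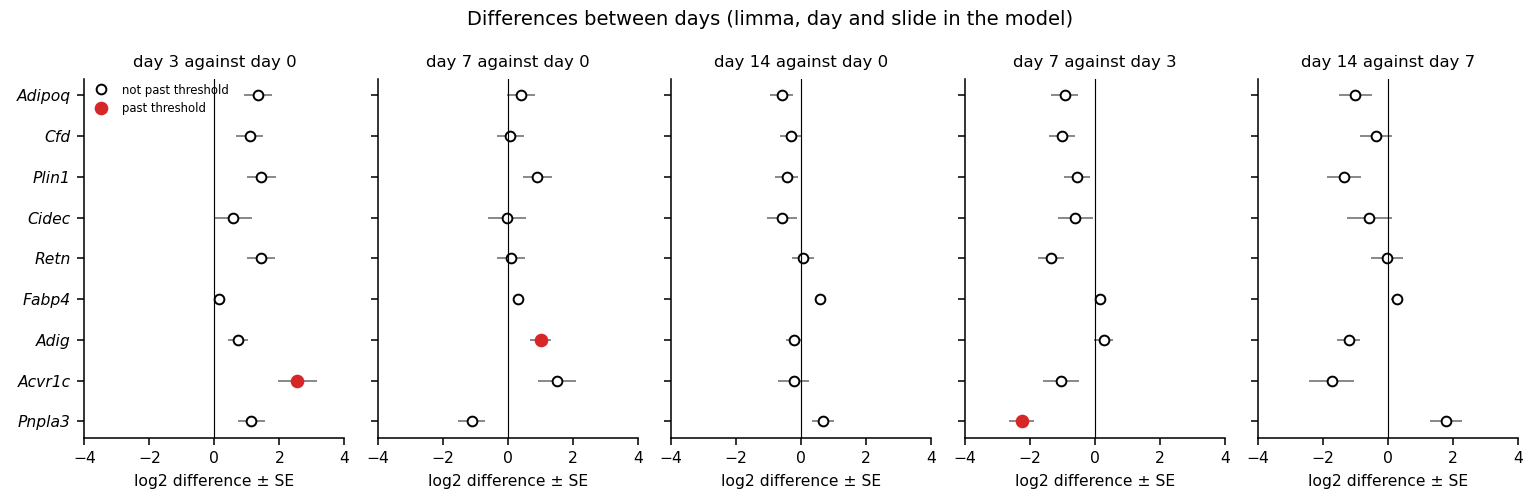
Log2 difference between days for the 9 tested genes in each of 5 comparisons, later day minus earlier day, from limma with day and slide in the model (points, with bars of 1 SE). Filled points passed at an adjusted p under 0.05: Acvr1c at day 3, Adig at day 7 and Pnpla3 at day 7 against day 3. The Acvr1c points rest on day 0 and day 14 values below background and are no fold changes.

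The markers also differed among RNA samples of the same day. The standard deviation between samples of a day had a median of 0.56 log2 units over the 9 genes, against 0.22 over all features. Cidec varied more within days than 98.1% of features, Acvr1c more than 97.3%, Plin1 more than 91.9%, Adipoq more than 91.6%, Retn more than 91.2% and Cfd more than 90.2%. Fabp4 was ordinary in this respect, above 41.5%. The median over the genes was 0.19 among the day 0 samples, 0.45 among those of day 3, 0.77 among those of day 7 and 0.65 among those of day 14, whereas over all features it kept between 0.17 and 0.21. For Adipoq, Cfd, Plin1, Cidec and Retn the day 0 samples were closer together than those of any later day. Acvr1c and Pnpla3 read 0.65 and 0.53 at day 0, 0.53 and 0.38 at day 3, and 0.56 and 0.29 at day 14. Their second probes gave 0.19 and 0.26, 0.39 and 0.64, and 0.079 and 0.25, so no order of days is given. The Acvr1c values of days 0 and 14 lay below background, which limits its 97.3% too. Adig and Fabp4 spread least at day 14 (0.059 and 0.12), but the second Adig probe spread by 0.50 there and least at day 7 (0.18). Samples 1 and 2 of day 0, run on both slides, read 1.72 and 1.69, and 1.74 and 1.61, for Adipoq before slide adjustment.

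**Figure D3:**
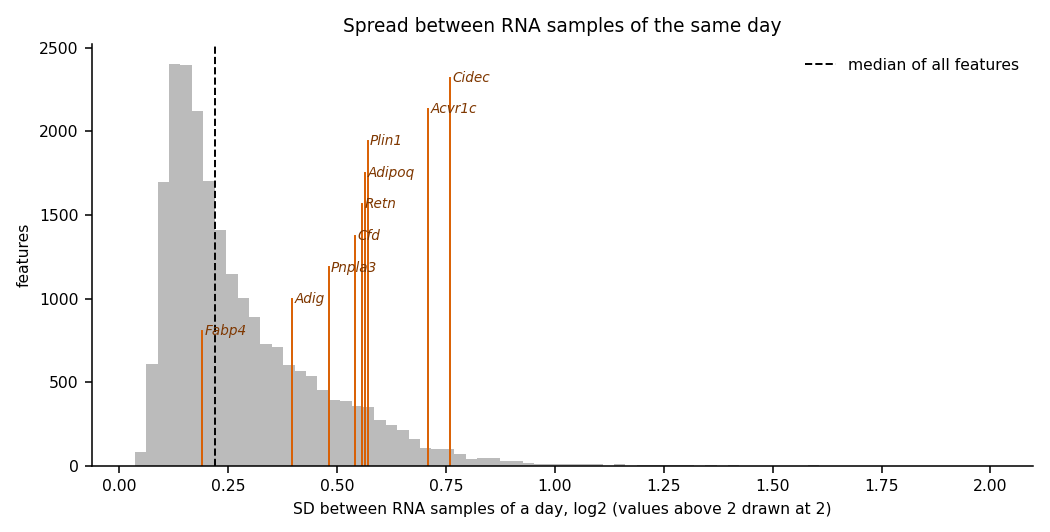
Number of features (vertical axis) by standard deviation between RNA samples of the same day, in log2 units (horizontal axis). Lines mark the 9 tested marker genes, their heights being for legibility only, and the dashed line the median of all features, 0.22. All of the genes but Fabp4, at 0.19, lie to the right of that median.

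The spread was shared. The mean level of Adipoq, Cfd, Plin1, Cidec and Retn was 1.95, 2.04, 2.13 and 1.82 in day 0 samples 1 to 4, 3.49, 3.34 and 2.66 in day 3 samples 1, 2 and 4, 2.06, 3.21 and 1.57 in day 7 samples 1, 2 and 4, and 0.79, 1.73, 2.50 and 1.42 in day 14 samples 1 to 4. Thus day 7 sample 2 reached the level of day 3, day 7 sample 4 lay below day 0, and the day 14 samples spread on both sides of day 0. Day 3 sample 4 was the lowest of its day in 9 of 9 genes and day 7 sample 4 in 8 of 9. Day 7 sample 2 was the highest of its day in 7 of 9 and day 14 sample 3 in 7 of 9, while day 14 sample 1 was the lowest in 6 of 9. At day 0 no sample was highest in more than 4 of 9. These ranks are of the fitted probes. The second probes of Cidec, Retn, Adig, Acvr1c and Pnpla3 also had day 3 sample 4 lowest. At day 7 those of Retn and Acvr1c had sample 4 lowest, those of Cidec, Adig and Pnpla3 did not, and Adig had it highest. At day 14 those of Cidec, Retn and Acvr1c did not have sample 1 lowest. Sample 3 was highest by those of Cidec, Retn and Pnpla3 and lowest by that of Acvr1c. Array brightness moved with part of the order of the fitted probes. The arrays of day 3 sample 4 and day 7 sample 4 had the lowest 75th percentiles of slide 1, 203.35 and 203.22 intensity units against 218 to 271 on its other arrays, and the lowest shares of spots above background, 48.3 and 49.0%. On slide 2 day 14 sample 1 had the lowest percentile, 49.1, and day 14 sample 3 the highest of its day, 67.1. The part of array brightness in the marker values was not tested.

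**Figure D4:**
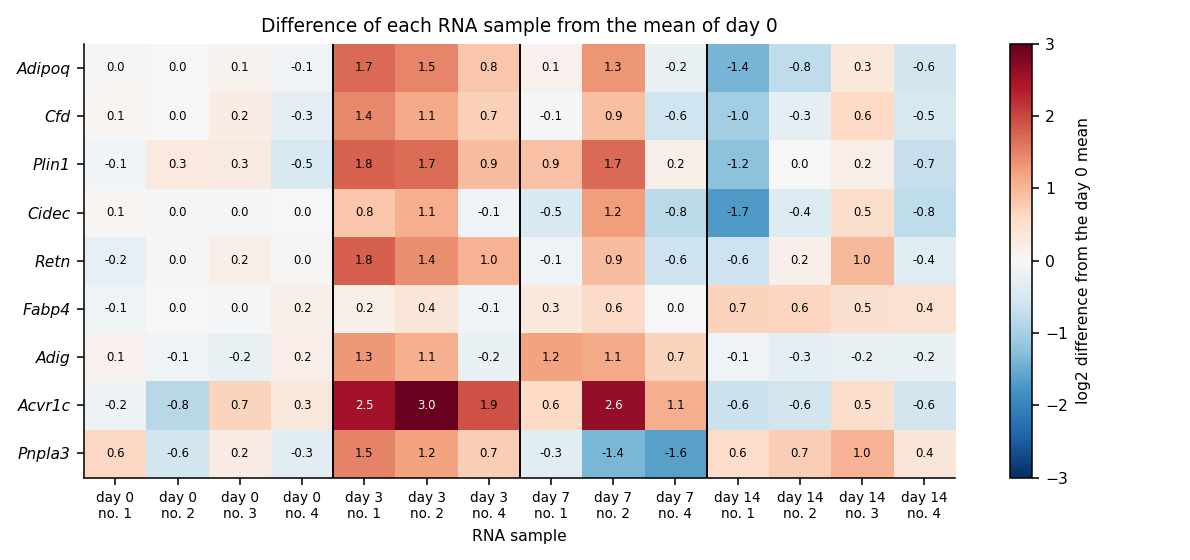
Log2 difference of each of the 14 RNA samples (columns) from the mean of day 0 for the 9 tested genes (rows), slide-adjusted, with the value printed in each cell. Red is above and blue below the day 0 mean. The upper 5 genes move together from column to column, with day 7 sample 2 and day 14 sample 3 red among their neighbours and day 14 sample 1 blue, while Fabp4 and Adig follow other patterns.

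After removal of the day means, the 10 pairs among these 5 genes correlated across the 14 RNA samples at r of 0.863 to 0.971, while the other 26 pairs of tested genes had r of 0.068 to 0.762. These are descriptions, since the genes share the same arrays and the sets were formed after the values were seen. With Adipoq, r was 0.971 for Cfd, 0.961 for Cidec, 0.927 for Retn and 0.863 for Plin1, and without the samples farthest out, day 7 sample 2 and day 14 sample 3, it was 0.931, 0.910, 0.817 and 0.794. Spearman's rho was 0.903, 0.873, 0.771 and 0.776 in the same order. Within slide 1 (days 3 and 7) these 4 genes had r of 0.969 to 0.987, and over days 0 and 14 of 0.752 to 0.957. Fabp4 had r of 0.344 over all samples, 0.871 over days 3 and 7, and -0.565 over days 0 and 14. Acvr1c had r of 0.746, which was 0.467 without the same 2 samples, Adig 0.399 and Pnpla3 0.250.

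**Figure D5:**
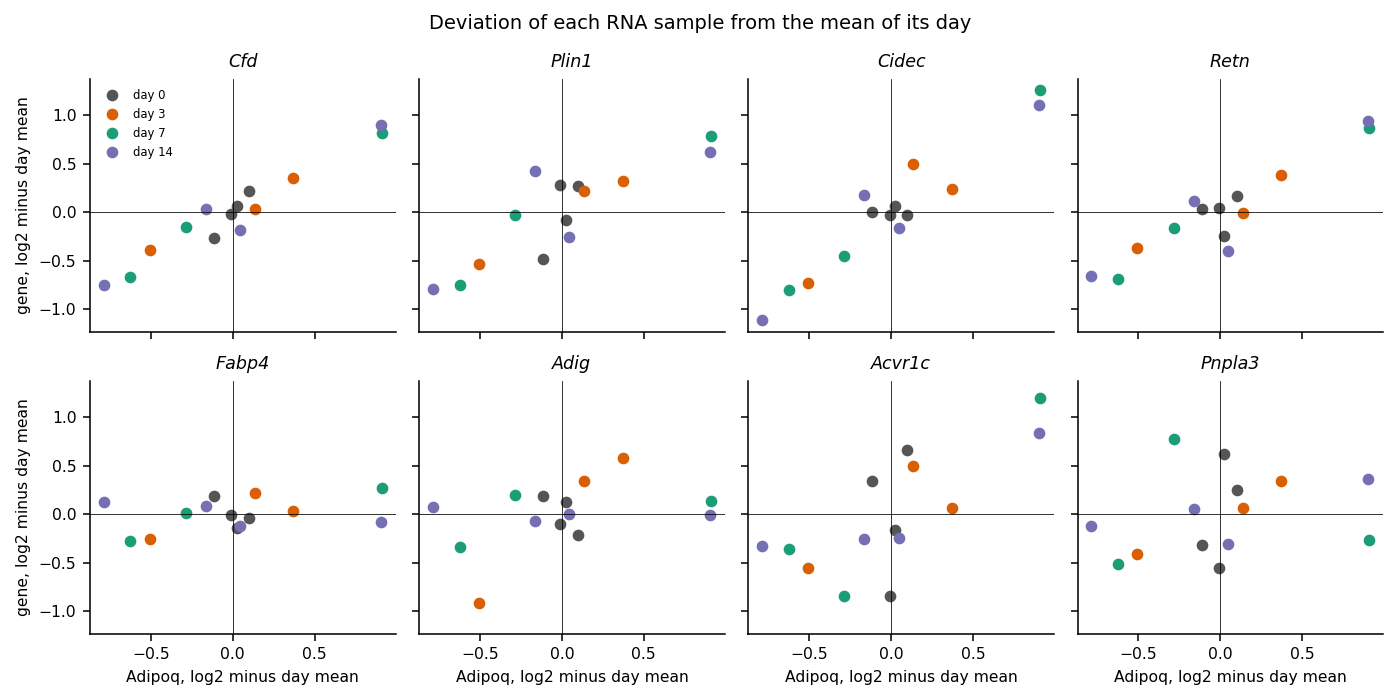
Deviation of each RNA sample from the mean of its day for Adipoq (horizontal axis) and for each of the other 8 tested genes (vertical axis), in log2 units, coloured by day. Cfd, Cidec and Retn lie near a line, with r of 0.971, 0.961 and 0.927 over 14 samples, Plin1 is looser at 0.863, and Fabp4 at 0.344 and Pnpla3 at 0.250 show little order.

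Of all other features, the 10 most like Adipoq by this measure had r of 0.911 to 0.958, and 0.793 to 0.917 without the same 2 samples. Highest was Cyp2e1, a cytochrome P450 (0.958), followed by Acp5, an acid phosphatase of osteoclasts and macrophages (0.937), and AK046899, an array name without a symbol (0.925). After them came Hp, the haemoglobin-binding haptoglobin (0.918), the probe A_55_P2183592 (0.917) and Scd1, the stearoyl-CoA desaturase (0.915). Prkar2b, a regulatory subunit of protein kinase A, Pck1, an enzyme of glyceroneogenesis, and Trf, the iron carrier transferrin, each had 0.914. Mrap, the accessory protein of the ACTH receptor, had 0.911. None of the 10 passed at day 3 against day 0 in limma, with adjusted p between 0.0547 for Trf and 0.997 for A_55_P2183592.

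Further genes of the fat cell were read in lists, and each difference called in limma was refitted with each of the 14 RNA samples left out in turn. None of the 42 called differences of these lists and of the reported marker lists of other cells passed in all 14 refits. Calls over all features also fell with 1 sample left out, to as few as 10 at day 3 and 103 at day 7 against day 0. Of the 42, 41 were lost without day 0 sample 2 and 33 without day 0 sample 1, the samples run on both slides. The exception without day 0 sample 2, Elovl6, was lost without day 3 sample 1 or 4 or day 7 sample 2 (adjusted p = 0.0549, 0.0862 and 0.0545, limma). Among 35 other white adipocyte genes, 3 rose at day 3 against day 0 in limma, where 6.09% of features passed, and their median difference was 0.15. These were Acly, which makes acetyl-CoA for fatty acid synthesis (0.60 ± 0.13, adjusted p = 0.0226), Aoc3, an amine oxidase of the fat cell surface (0.95 ± 0.24, adjusted p = 0.0374), and Me1, malic enzyme (0.40 ± 0.11, adjusted p = 0.0495). Without day 0 sample 2 their adjusted p was 0.221, 0.224 and 0.354 in limma, and Me1 passed in only 2 of 14 refits. At day 7 against day 0, 4 rose and 5 fell, where 23.8% of features passed. Me1 rose by 0.68 ± 0.11 (adjusted p = 0.00301, limma), the carbonic anhydrase Car3 by 0.72 ± 0.15 (0.00574) and the fatty acid transporter Cd36 by 0.65 ± 0.16 (0.0120), and Agpat2 was the other. Without day 0 sample 2 the adjusted p was 0.0669 for Me1, 0.0937 for Car3 and 0.147 for Cd36 in limma. Soleus fibres also express Car3 and Cd36. The largest of the falls was that of Fasn, fatty acid synthase, named after its value was seen, which fell by 1.57 ± 0.46 (adjusted p = 0.0251, and 0.164 without day 0 sample 2, limma). At day 7 against day 3, 2 of 35 genes fell, where 0.678% of features passed. Elovl6, a fatty acid elongase, fell by 1.20 ± 0.20 (adjusted p = 0.0202, limma), and Orm1, an acute-phase protein, fell by 2.04 ± 0.42 (0.0447, in 2 of 14 refits). Between day 14 and day 7, where 2.3% of features passed, Me1 fell by 0.77 ± 0.13 (adjusted p = 0.0181, limma), and Agpat2, an enzyme of triglyceride synthesis, fell by 0.85 ± 0.20 (0.0449). Without day 0 sample 2 the adjusted p was 0.190 for Me1 and 0.288 for Agpat2 in limma. For day 14 minus day 0, 0 of 35 passed in limma, where 0.402% of features did. An unadjusted p under 0.05 was found for 6, with Acly the first at 0.29 ± 0.10 (adjusted p = 0.147, limma).

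Of the 10 adipogenic transcription factors, 0 passed at day 3 against day 0 in limma and 1 had an unadjusted p under 0.05, Pparg, the receptor that directs fat cell formation, at 0.45 ± 0.18 (adjusted p = 0.146). By day 14, 0 passed against day 0 and 3 had an unadjusted p under 0.05, Pparg being first at 0.56 ± 0.15 (adjusted p = 0.0861, limma). At day 7, Zfp423, a factor of preadipocyte commitment, rose by 0.41 ± 0.13 over day 0 (adjusted p = 0.0407, limma), 1 of 10 where 23.8% of features passed. Its direction was not stable, at -0.014 without the slide term and -0.23 without the slide 1 arrays of day 0 as well. The latter value sets slide 1 against slide 2, so day and slide cannot be told apart in it. The adjusted p of Zfp423 was 0.224 without day 0 sample 2 (limma). For day 7 minus day 3, 0 passed in limma and 0 had an unadjusted p under 0.05, with Cebpa, a factor of the mature fat cell, at -0.62 ± 0.43 (adjusted p = 0.539). For day 14 minus day 7, 0 passed and 1 had an unadjusted p under 0.05, Zfp423 at -0.43 ± 0.15 (adjusted p = 0.128, limma). In the comparisons where 0 of the 10 passed, 0.402 to 6.09% of all features did.

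Of 10 brown and beige fat genes, 8 were measured, and neither Ucp1, the uncoupling protein that defines brown fat, nor Elovl3 passed the filter on dim probes. At day 7, 1 of 8 rose over day 0, where 23.8% of features passed. It was Cox8b, a subunit of cytochrome oxidase that muscle also uses, at 0.37 ± 0.11 (adjusted p = 0.0243, and 0.226 without day 0 sample 2, limma). In the 4 other comparisons 0 of 8 passed in limma, where 0.402 to 6.09% of features did. An unadjusted p under 0.05 was found for 2 at day 3, 3 at day 14, 1 at day 7 against day 3 and 2 at day 14 against day 7. The first gene was Prdm16, a factor of brown fat, at 1.05 ± 0.32 (adjusted p = 0.0678) at day 3 and Cox8b at 0.33 ± 0.08 (0.0854) at day 14 in limma. Between later days it was Cox7a1, a muscle form of a cytochrome oxidase subunit, at 0.36 ± 0.13 (0.215), and Otop1, a proton channel, at -1.31 ± 0.41 (0.0975).

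Receptors linked to the secreted products were measured in 6 of 6. Against day 0, 6.09% of all features passed at day 3 and 23.8% at day 7. Lepr, the leptin receptor, rose by 0.71 ± 0.12 at day 3 (adjusted p = 0.0126) and by 0.56 ± 0.12 at day 7 (adjusted p = 0.00665, limma) over day 0. Without day 0 sample 2 these adjusted p were 0.193 and 0.0804 in limma. Without the slide 1 arrays of day 0 and the slide term, the day 7 difference was -0.036 and also held any slide difference. At day 7, C3ar1, the receptor of a complement fragment, fell by 0.99 ± 0.26 (adjusted p = 0.0170) and Cdh13, which binds adiponectin, fell by 0.37 ± 0.11 (adjusted p = 0.0307, limma). Leaving out day 0 sample 2 gave 0.119 and 0.190 in limma. In the other comparisons 0 of 6 passed in limma, where 0.402 to 2.3% of features did. An unadjusted p under 0.05 was found for 1 at day 14, 2 at day 7 against day 3 and 3 at day 14 against day 7. The first genes there were C3ar1 at -0.84 ± 0.21 (adjusted p = 0.0787), Cap1, a resistin receptor known in humans, at -0.49 ± 0.14 (0.129), and Lepr at -0.53 ± 0.14 (0.0620).

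Droplet coat and lipase genes outside the marker list, which muscle fibres also use, were measured in 14 of 14. At day 3, 1 of 14 passed against day 0, where 6.09% of features did, the lysophospholipase Pnpla7, which fell by 0.60 ± 0.15 (adjusted p = 0.0326, and 0.224 without day 0 sample 2, limma). At day 7, where 23.8% of features passed, 2 of 14 fell, G0s2, an inhibitor of triglyceride lipase, by 1.14 ± 0.31 (adjusted p = 0.0187) and Plin2, the coat protein of small droplets, by 0.38 ± 0.13 (adjusted p = 0.0424, limma). With day 0 sample 2 left out these were 0.0757 and 0.0934 in limma. In the other comparisons 0 of 14 passed in limma, where 0.402 to 2.3% of features did. An unadjusted p under 0.05 was found for 2, 4 and 3 at day 14 against day 0, day 7 against day 3 and day 14 against day 7. The first genes were Plin2 at -0.27 ± 0.10 (adjusted p = 0.160), Pnpla7 at 0.63 ± 0.13 (0.0523) and Plin5, the perilipin of oxidative muscle, at -1.17 ± 0.34 (0.0804).

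Markers of cells near fat were set beside these values. At day 3, 3 of 9 markers of fibro-adipogenic progenitors rose over day 0 in limma, where 6.09% of features passed, Pi16 by 0.81 ± 0.16 (adjusted p = 0.0212), Gsn by 0.80 ± 0.20 (0.0332) and Cd34 by 0.67 ± 0.16 (0.0316). Without day 0 sample 2 these were 0.218, 0.289 and 0.299 in limma. Of the other 6, Pdgfra, Dpp4 and Dcn had differences above 0 and Ly6a, Col15a1 and Dlk1 below 0, Ly6a at -0.63 ± 0.23 (adjusted p = 0.118, limma). The list had a mean level of 2.69 to 2.96 in day 3 samples against 2.39 to 2.77 in day 0 samples. At day 7, where 23.8% of features passed, 3 rose and Ly6a fell by 1.13 ± 0.23 (adjusted p = 0.00600, and 0.0669 without day 0 sample 2, limma). Also at day 7, 3 of 6 macrophage markers fell (C1qa, C1qb and C1qc), and the list had a mean level of 0.08 to 0.33 against 0.92 to 1.499 at day 0. At day 3 that mean level was 1.27 and 0.69 in samples 1 and 2 and 2.27 in sample 4, the sample lowest of its day in all 9 tested fat cell markers. The 6 tendon markers had a mean level of 1.12 to 2.43 at day 14 against 1.58 to 3.30 at day 0. Of them Fmod fell by 2.07 ± 0.39 on the log2 scale (adjusted p = 0.0447, and 0.140 without day 0 sample 2, limma), where 0.402% of features passed. The part of these cell types in the fat cell marker values was not tested.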

How the data were processed

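Spot brightness was measured on 16 arrays of 14 RNA samples. The deposited scanner files hold linear intensity, per the file headers extracted with Agilent's Feature Extraction software, background and spatial trend being removed and arrays left unscaled. The deposited table of the series also holds linear intensity, whose making is not given in the sources used here, and it served as an alternative. Here, log2 of the processed intensity was reduced by each array's 75th percentile over non-control spots and averaged over spots of a probe, without outlier spots. RefSeq transcripts gave names to 27656 of 55681 probes. The filter on dim probes asked for a signal well above background on 3 or more of the 16 arrays. With the brightest probe of each gene this gave 22126 features, and 14088 have gene names. Days were compared by limma 3.58.1 (statmod 1.5.0, R 4.3.3), 2-sided, with day and slide as fixed terms and RNA sample as a random block (correlation 0.448). P-values were adjusted by Benjamini-Hochberg. Where no array of a day was above background, a fold is a bound against the lowest level above background.

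The 10 genes and the lists were chosen with earlier results of these data known. From the 5 lists of fat cell genes, those past the threshold were named, at most 3 per comparison by smallest p, or else the first; the likeness to Adipoq took the 10 features of highest r. The normexp alternative used the spot median and local background median, since the files hold no spot mean, with an offset of 50. Further alternatives concerned slide, scaling, filter, probe choice, samples left out and replicate numbers. One list of markers is not reported here. The fit was tested on simulated data. Figures were drawn with Matplotlib 3.10.9, and tables made with pandas 2.3.3 and NumPy 2.4.6, under Python 3.11.15.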

Additional observations from a re-analysis of the deposited data

Results flagged for a closer look

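By its fitted probe, Acvr1c at day 14 was set apart by 1 sample. Day 14 sample 3 read -3.34, against -4.50 to -4.42 in the other 3 samples, so that its gap to the nearest of them took up 0.932 of the range of the day, past Dixon's limit for 4 samples. This check was made on 20 groups of 4 samples, of which chance marks about 1 in 20. None of the day 14 arrays was above background for Acvr1c. The second Acvr1c probe read -4.10 in sample 3, the lowest of that day, against -3.98 to -3.92 in the others. The same sample was highest of its day for Adipoq, Cfd, Plin1, Cidec, Retn and Pnpla3.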

How the results depend on the processing

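Of 1106 member differences recomputed under the alternatives, 1034 kept their side of the threshold, 22 lost a call and 50 gained one. No called value changed sign, and 34 values past the threshold in neither fit did. Counts of the 9 genes called were as follows. The all-array filter kept probes above background on every array, so Acvr1c and Pnpla3 were not fitted there. With no filter, Lep was fitted as well. At day 3 against day 0 (1), 0 passed without a slide term, within slide 1, with quantile normalization and with no filter, 3 with the all-array filter, 4 with the deposited table, 5 with normexp and 0 to 4 with 1 sample left out. At day 7 against day 0 (1), it was 2 without the slide term, with normexp and with the percentile over probes above background on all arrays, 0 within slide 1 and with no filter, and 0 to 1 with 1 sample left out. At day 14 against day 0 (0), it was 1 without the slide term and with the all-array filter, and 0 to 1 with 1 sample left out. At day 7 against day 3 (1), it was 2 with normexp, 0 within slide 1, with quantile normalization and with no filter, and 0 to 1 with 1 sample left out. It was also 0 with the all-array filter, where Pnpla3, the gene called in the full fit, was not fitted. At day 14 against day 7 (0), it was 3 with no slide term, with the day 0 arrays of slide 1 left out and with normexp, 1 with the all-array filter and 0 to 1 with 1 sample left out. By the F-test (3), it was 6 without the slide term, 7 with normexp, 1 with quantile normalization or no filter, 5 with the all-array filter and 0 to 5 with 1 sample left out. The cause was not tested.

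Of the called differences of list genes, 6 values reversed. Zfp423 at day 7 against day 0 was -0.014 with no slide term. With the day 0 arrays of slide 1 also left out it was -0.23, and in that fit Lepr was -0.036, Tnnc1 0.12 and Tnni1 0.017 at day 7, and Tnni1 0.19 at day 3, against day 0. The cause was not tested.

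With the replicate block (the sample number as a further term), the counts were 6 at day 3, 2 at day 7, 0 at day 14, 1 at day 7 against day 3, 3 at day 14 against day 7 and 7 by the F-test. The numbers are not known to pair samples: over 19 pairs of same-numbered samples the deviations correlated at -0.153 to 0.169, and 9 correlated best with their own number. Over all features the counts ranged from 0 to 3393 at day 3 (1348), 2094 to 7045 at day 7 (5261), 1 to 3101 at day 14 (89), 0 to 725 at day 7 against day 3 (150), 285 to 4174 at day 14 against day 7 (508) and 1450 to 6189 by the F-test (3775). With 1 sample left out they ranged from 10 to 1717, 103 to 5808, 3 to 219, 28 to 268, 4 to 1225 and 78 to 4721 in the same order. Fits with 1 sample left out kept the array correlation of the full fit. The median spread within a day over the 9 genes was 0.40 to 0.57 under 4 alternatives, above that of all features in each. Signal over background limits Acvr1c, Lep and Pnpla3.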
